A study of Homo sapiens with 3 samples.

Results

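The early growth response (EGR) transcription factors EGR1, EGR2, EGR3 and EGR4 and the EGR-binding corepressors NAB1 and NAB2 were read on 3 one-colour Agilent arrays of human THP-1 macrophages. The members were all probes for transcripts whose gene name on the array was 1 of these 6 symbols, which gave 7 probes among 58201 and 6 genes among 43317 gene names. THP-1 is a monocytic leukemia line, and by the protocol that all 3 samples share it was turned into macrophage-like cells with the phorbol ester PMA (100 ng/mL for 24 to 36 h) and then rested overnight in fresh medium. The Ctrl culture was labelled as normal cells, with neither compound named. The IMQ culture got imiquimod (IMQ), a ligand of the endosomal receptor TLR7, and the third culture, labelled IMQ+X, was pretreated before IMQ. The pretreatment was read as DMD (a benzenediol with methoxy and methyl groups, known from the fungus Antrodia cinnamomea), since the series names no other compound beside IMQ, and this culture is called IMQ+DMD below. All samples were labelled 4 h, although the study's methods describe a longer exposure to IMQ for these cells in general. The labels give no dose, and each condition was 1 array of 1 culture, so no test between conditions was possible and no p-value is given.

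EGR1 to EGR4 are zinc finger factors that bind GC-rich DNA, and their genes belong to the immediate-early class, which is transcribed within minutes of a signal without new protein synthesis. The main route runs through a kinase cascade to ELK factors, which sit with serum response factor (SRF) on CArG boxes in the promoters, and cyclic AMP responsive elements (CRE) bound by CREB add to it. NAB1 and NAB2 have no DNA-binding domain of their own, dock on EGR1, EGR2 and EGR3 and repress transcription there, and NAB2 is itself an EGR target, which makes a negative feedback loop. In monocytes and macrophages, EGR1 is known as a PMA- and Toll-like receptor-inducible gene and as a regulator of tissue factor and TNF.

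The promoter stretches of both EGR genes whose start lies beside a CArG box, and of both NAB genes, are shown because they hold the letters of these elements. The sequences are the 250 bases before a RefSeq transcript start. Capitals mark CArG boxes and the CRE core CGTCA (on either strand) in EGR1 and EGR2, and the EGR consensus GCGNGGGCG (on either strand) in NAB1 and NAB2.
EGR1 (GRCh38.p14, chr5:138465229-138465478, plus strand): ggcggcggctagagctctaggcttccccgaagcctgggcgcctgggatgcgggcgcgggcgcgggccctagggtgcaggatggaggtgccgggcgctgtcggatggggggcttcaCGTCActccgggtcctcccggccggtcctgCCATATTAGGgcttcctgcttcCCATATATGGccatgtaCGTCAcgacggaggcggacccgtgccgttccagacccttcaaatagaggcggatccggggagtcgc
EGR2 (GRCh38.p14, chr10:62816367-62816616, minus strand): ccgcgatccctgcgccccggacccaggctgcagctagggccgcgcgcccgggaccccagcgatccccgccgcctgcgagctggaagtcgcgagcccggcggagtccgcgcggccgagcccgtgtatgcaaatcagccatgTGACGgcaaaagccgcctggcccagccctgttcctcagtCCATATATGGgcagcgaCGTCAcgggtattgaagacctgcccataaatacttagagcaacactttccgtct
NAB1 (GRCh38.p14, chr2:190648645-190648894, plus strand): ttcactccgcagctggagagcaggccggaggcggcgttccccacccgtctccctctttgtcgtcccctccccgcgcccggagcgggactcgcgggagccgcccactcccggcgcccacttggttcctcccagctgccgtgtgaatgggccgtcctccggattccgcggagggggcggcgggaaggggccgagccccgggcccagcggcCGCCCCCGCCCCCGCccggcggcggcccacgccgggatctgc
NAB2 (GRCh38.p14, chr12:57088864-57089113, plus strand): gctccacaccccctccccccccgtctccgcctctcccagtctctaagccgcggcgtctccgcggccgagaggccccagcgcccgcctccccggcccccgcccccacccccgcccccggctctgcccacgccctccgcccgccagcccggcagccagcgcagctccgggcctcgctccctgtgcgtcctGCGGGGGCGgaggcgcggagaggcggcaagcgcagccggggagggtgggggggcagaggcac

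Entries were read for 5 of the 6 genes with 9 start sites in all. None was read for EGR3, and all entries of its chromosome were left out, also from the shares over all stretches given here. EGR1 held 2 CArG boxes, at bases 105 to 96 and 83 to 74 before the start, with CRE cores at bases 135 to 131 and 66 to 62. EGR2 held 1 CArG box at bases 71 to 62 before the start shown and none before its other starts, with CRE cores at bases 110 to 106 and 54 to 50. A CArG box was present in 1.16% of the 35116 promoter stretches of this length, 2 or more in 11 of them, and a CRE core in 21.2%. EGR4 had no CArG box in this window and 2 CRE cores. The EGR consensus, whose letters overlap the GC boxes bound by SP factors, was found in 8.41% of all stretches, and 2 or more matches in 1.31%. EGR1 held 1 match (not capitalised) and NAB2 held 1 match (bases 62 to 54). NAB1 held 2 matches that overlap each other (bases 42 to 34 and 36 to 28) before the start shown. Before another start it held 3, which include these 2 because the windows overlap. The AP-1 site TGANTCA was in none of the 9 stretches and in 6.57% of all, and a κB site was in 9.96% of all, with 2 matches in EGR4 and 1 match each before another start of EGR2 and of NAB1. These matches describe the letters in the windows and were not measured as binding.

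Values are the authors' quantile-normalized intensities, in arbitrary units, each from a single spot. None of the member spots was saturated or marked as an outlier by the scanner software. The technical standard deviation (SD) was taken from 300 probes spotted 10 times on each array, and covers the noise of a spot of like brightness within an array, not the spread between cultures. Between 66.6% and 72.0% of the 58201 probes were well above background on the 3 arrays, and the median signal before normalization was lowest on the IMQ array (61.8) and highest on the Ctrl array (94.5). All 6 macrophage markers found on the array by name (CD14, ITGAM, CSF1R, MSR1, SPI1 and CD163) were well above background on every array, and their summed intensity was 297090 in Ctrl, 226130 in IMQ and 203830 in IMQ+DMD. CSF1R made up most of this sum (224900 in Ctrl). By the brightest probe of each gene, 2 of the 6 fell by more than 2-fold under all 6 scalings tried. These were CD163 (2.33-fold lower in IMQ and 2.19-fold lower in IMQ+DMD than in Ctrl) and CD14 (2.32-fold lower in IMQ+DMD than in Ctrl). The 4 probes of MSR1 disagreed. Its brightest gave log2 differences from Ctrl of -0.61 in IMQ and -0.71 in IMQ+DMD, and the lowest values among its probes were -1.02 and -1.285. Of the markers of other cells found by name, all 3 of T cells (sum 688, 592 and 697), all 3 of B cells (4671, 3800 and 4511) and all 3 of neutrophils (3447, 3341 and 3594) were also well above background on every array, as were 2, 1 and 2 of 3 of keratinocytes (93.2, 74.9 and 117), with the keratinocyte cadherin DSG3 on none. The dim keratin KRT5 was at least 2.16-fold higher in IMQ+DMD than in IMQ, where it was in the background, and in 5 of the 6 scalings it was 2-fold higher. The part of these levels in the results below was not tested. Each sample was a bulk culture of the THP-1 line, so the marker readings are transcript levels of this line and no count of other cell types. A change in the share of cells with a transcript and a change in its amount per cell cannot be told apart.

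EGR1 was the member that rose with IMQ by more than 2-fold, and the other 4 measured members were higher than in Ctrl by less than that. EGR1, the founding member of the family, had a normalized intensity of 323 in Ctrl, 1567 in IMQ and 1111 in IMQ+DMD, and a processed signal before normalization of 390, 1449 and 970. Its probe (A_23_P214080, transcript NM_001964, hg19 chr5:137804891-137804950) was thus lowest in Ctrl and highest in IMQ on both scales. The difference of IMQ from Ctrl was 2.28 on the log2 scale (4.85-fold higher, technical SD of the difference 0.08). Of the 31849 genes compared, 208 including EGR1 had a difference at least as high.

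EGR2, which is known for its part in myelination and in macrophage and lymphocyte activation, read 3946 in Ctrl, 6740 in IMQ and 8992 in IMQ+DMD (A_23_P46936, NM_000399, hg19 chr10:64571850-64571909). Its order differed from that of EGR1, since IMQ+DMD and not IMQ was highest. IMQ exceeded Ctrl by 0.77 on the log2 scale (1.71-fold, technical SD 0.06), short of a 2-fold change. EGR4, the member that lacks the NAB docking domain, was dim but well above background, with 41.6 in Ctrl, 72.6 in IMQ and 63.1 in IMQ+DMD (A_23_P380318, NM_001965). The files place 27 bases of its probe at hg19 chr2:73518051-73518077. Its difference of IMQ from Ctrl was 0.80 on the log2 scale (1.74-fold), with a technical SD of 0.30 that is wide because spots this dim vary more. EGR3, a factor described mainly in lymphocytes, neurons and muscle spindles, was not well above background on any array, with readings of 4.12, 8.11 and 4.14. These lay under the lowest intensity of a probe well above background on the same array (16.5, 23.8 and 16.9), so no EGR3 difference was computed.

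**Figure D1:**
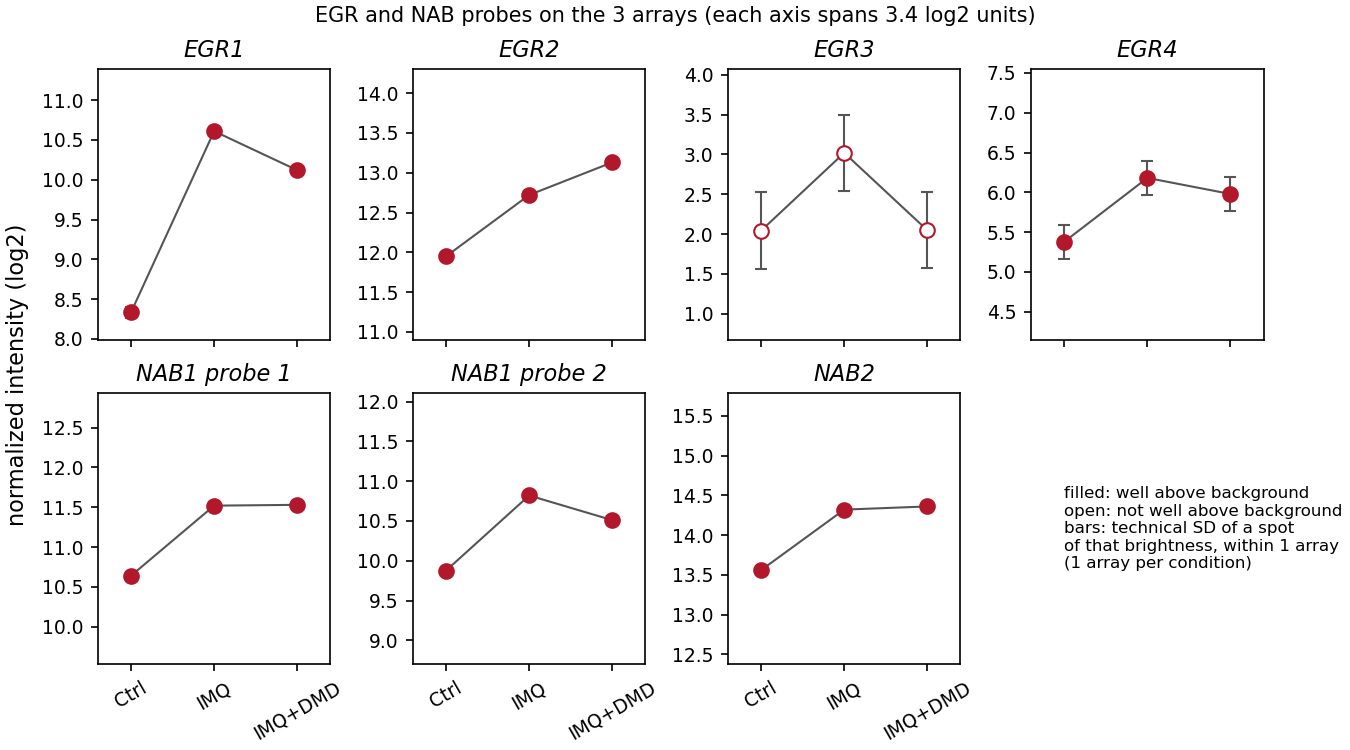
Normalized intensity (log2, vertical axis) of the 7 EGR and NAB probes on the Ctrl, IMQ and IMQ+DMD arrays, with each vertical axis spanning the same 3.4 log2 units. Points are single spots on 1 array per condition, open where not well above background, and bars are the technical SD of a spot of that brightness. EGR1 makes the largest step from Ctrl to IMQ among the 6 probes above background, EGR2 is the probe that is clearly highest in IMQ+DMD, and EGR3 stays in the background.

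Both corepressors were higher in IMQ. NAB1 was read by 2 probes for NM_005966 (probe 1, A_23_P209805, hg19 chr2:191555149-191555208, and probe 2, A_24_P191417, hg19 chr2:191557095-191557154). Probe 1 read 1592 in Ctrl, 2932 in IMQ and 2967 in IMQ+DMD, and probe 2 read 940 in Ctrl, 1805 in IMQ and 1462 in IMQ+DMD. The probes gave like differences of IMQ from Ctrl, 0.88 and 0.94 on the log2 scale (1.84-fold and 1.92-fold, technical SD 0.07 for each). NAB2, the feedback corepressor, read 12053 in Ctrl, 20484 in IMQ and 21049 in IMQ+DMD (A_33_P3248794, NM_005967, hg19 chr12:57489162-57489221). Its difference of IMQ from Ctrl was 0.77 on the log2 scale (1.70-fold, technical SD 0.06).

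Counted over genes, 1 of the 5 measured members, EGR1, was at least 2-fold higher in IMQ than in Ctrl and 0 were at least 2-fold lower. Over all 31849 genes compared, 4.17% were at least 2-fold higher and 3.59% at least 2-fold lower. The 5 members had a median log2 difference of 0.80 beside -0.02 for all genes, and the 4 members under the threshold each exceeded between 93.0% and 94.6% of the genes compared. At a 1.5-fold threshold all 5 were higher in the deposited values, as were 10.7% of all genes compared. The 4 members other than EGR1 were under 1.5-fold without normalization (log2 0.185 to 0.507) and with spike-in scaling (log2 0.113 to 0.435). With normexp background correction EGR4 was under it (log2 0.328).

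**Figure D2:**
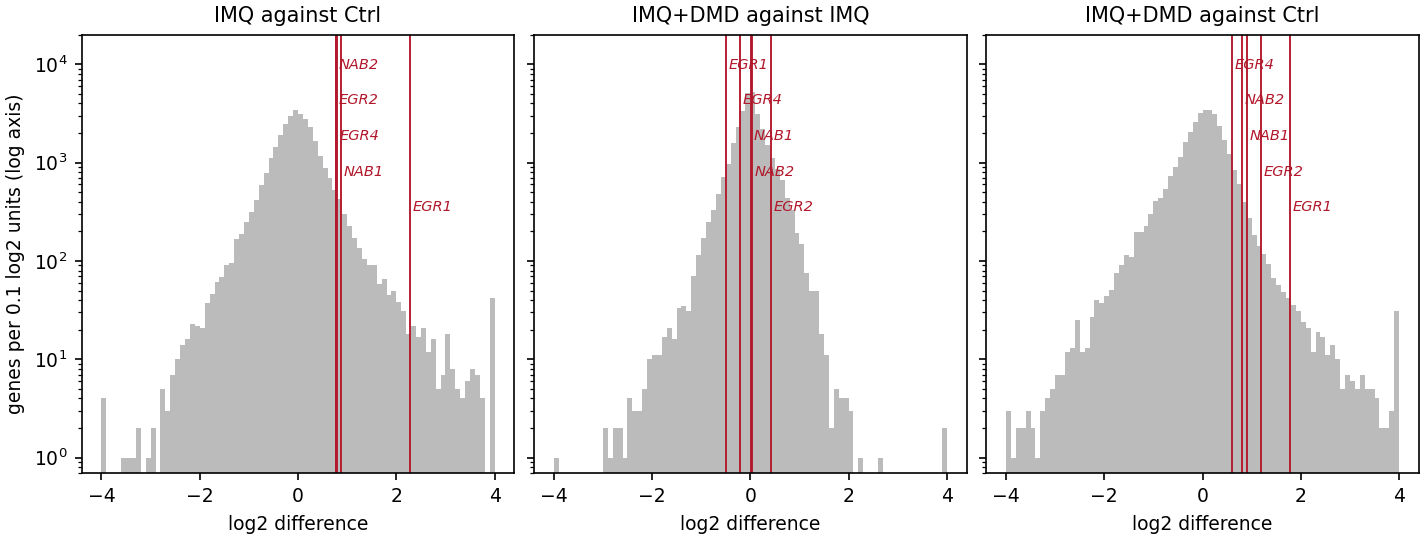
Histograms of the log2 differences of all genes compared, in bins of 0.1 log2 units with a log vertical axis, for IMQ against Ctrl, IMQ+DMD against IMQ and IMQ+DMD against Ctrl. Red lines mark the 5 measured members, and the outermost bars collect all genes beyond the axis. In IMQ against Ctrl, EGR1 lies in the right tail at 2.28 and the other 4 crowd between 0.77 and 0.88, while in IMQ+DMD against IMQ all 5 lie between -0.50 and 0.42.

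With DMD before IMQ, EGR1 was lower and EGR2 higher than with IMQ alone, both by less than 2-fold. EGR1 was 0.50 lower on the log2 scale (1.41-fold, technical SD 0.07), and 7.48% of the 31698 genes compared had a lower value. Of the rise of EGR1 with IMQ, 78.2% on the log2 scale was still present in IMQ+DMD, and between 69.5% and 78.9% under the 6 ways of scaling the arrays. EGR2 was 0.42 higher on the log2 scale (1.33-fold, technical SD 0.06), and 88.1% of genes lay below it. The differences of EGR1 and EGR2 were 7.18 and 6.64 times their technical SD in opposite directions, and kept those directions in 8 of 8 alternative ways of processing. Of these, the 2 other filters on dim probes and the mean over probes could not change them. Each gene has 1 probe, well above background on every array. The spread between cultures was not measured, so whether these differences exceed it cannot be said.

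EGR4 differed between IMQ+DMD and IMQ by less than its technical SD (log2 -0.20, technical SD 0.30), and the sign turned under 3 of 8 alternatives. The 2 other filters and the mean over probes could not change it, since EGR4 also has 1 probe, well above background on every array. NAB2 also differed by less than its technical SD (log2 0.04, technical SD 0.06). The NAB1 probes parted here. Probe 1 differed by 0.02 on the log2 scale and probe 2 by -0.30, with technical SDs of 0.06 and 0.07, and the gap of 0.32 between them was between 0.29 and 0.35 under every scaling tried. Among 4910 genes with 2 probes well above background on all arrays, 34.2% had a gap at least as wide in this comparison, and the median gap was 0.20. Of the 5 measured members, 0 were at least 2-fold higher and 0 at least 2-fold lower in IMQ+DMD than in IMQ, where 1.19% of all genes were at least 2-fold higher and 1.25% at least 2-fold lower. The median log2 difference of the 5 members was 0.02, beside 0.00 for all genes. This median is the value of NAB1 probe 1, and with NAB1 probe 2 in its place it would be lower.

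Against Ctrl, a comparison that shares an array with each of the others, the IMQ+DMD culture had 2 of 5 measured members at least 2-fold higher. These were EGR1 (log2 1.78, 3.44-fold) and EGR2 (log2 1.19, 2.28-fold). NAB1 (log2 0.90 by probe 1 and 0.64 by probe 2), NAB2 (0.80) and EGR4 (0.60) stayed under the threshold, and 0 members were at least 2-fold lower. Over the 33707 genes compared, 3.04% were at least 2-fold higher and 4.83% at least 2-fold lower. At 1.5-fold, all 5 members and 9.76% of all genes were higher in the deposited values. NAB1, NAB2 and EGR4 were under 1.5-fold without normalization (log2 0.400 or less) and with spike-in scaling (log2 0.463 or less). With normexp background correction EGR4 was under it (log2 0.272). Without normalization between arrays and with spike-in scaling, EGR2 fell short of 2-fold and EGR1 was the member that remained.

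**Figure D3:**
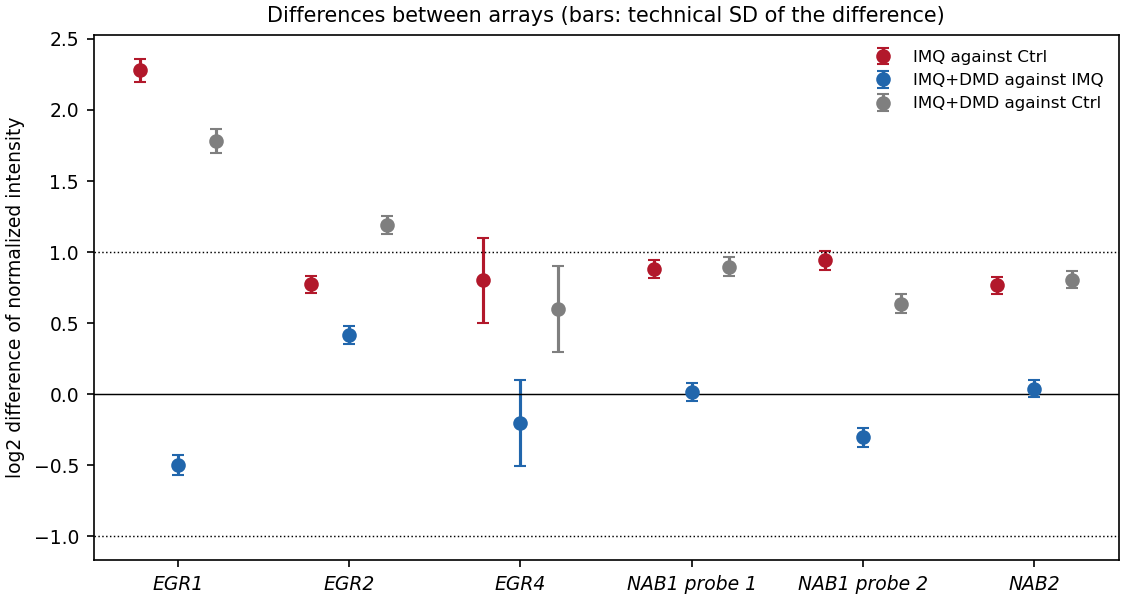
Log2 differences of normalized intensity for the 6 probes well above background, in the 3 comparisons (colours), with bars for the technical SD of the difference within arrays and dotted lines at a 2-fold change. All 6 probes lie above 0 in both comparisons with Ctrl. Between IMQ+DMD and IMQ, EGR1 and NAB1 probe 2 lie below 0 and EGR2 above it by more than the bar, and the remaining 3 probes have bars that reach or cross 0.

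The size of the differences depended on how the arrays were scaled. Without normalization the median of all genes was 0.51 lower on the log2 scale in IMQ than in Ctrl, and with scaling to 8 spike-in control probes it was 0.59 lower. EGR1 was then higher by 1.89 and 1.82, EGR2 by between 0.33 and 0.86 over the 6 scalings, NAB2 by between 0.37 and 0.90, and NAB1 probe 1 by between 0.44 and 0.96. EGR4 ranged from 0.11 to 0.80, so that under some scalings its difference was within its technical SD. Taken relative to the median of all genes under the same scaling, EGR1 was higher by 2.08 to 2.41, EGR2 by 0.75 to 0.92, NAB2 by 0.78 to 0.96, NAB1 probe 1 by 0.88 to 1.03 and EGR4 by 0.35 to 0.82. All 6 probes were thus higher in IMQ than in Ctrl under each of these scalings, both as read and relative to the median gene. Between IMQ+DMD and IMQ, EGR1 kept a negative difference (-0.60 to -0.44) and EGR2 a positive difference (0.27 to 0.45), while NAB1 probe 1 (-0.13 to 0.03) and NAB2 (-0.12 to 0.06) changed sign.

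**Figure D4:**
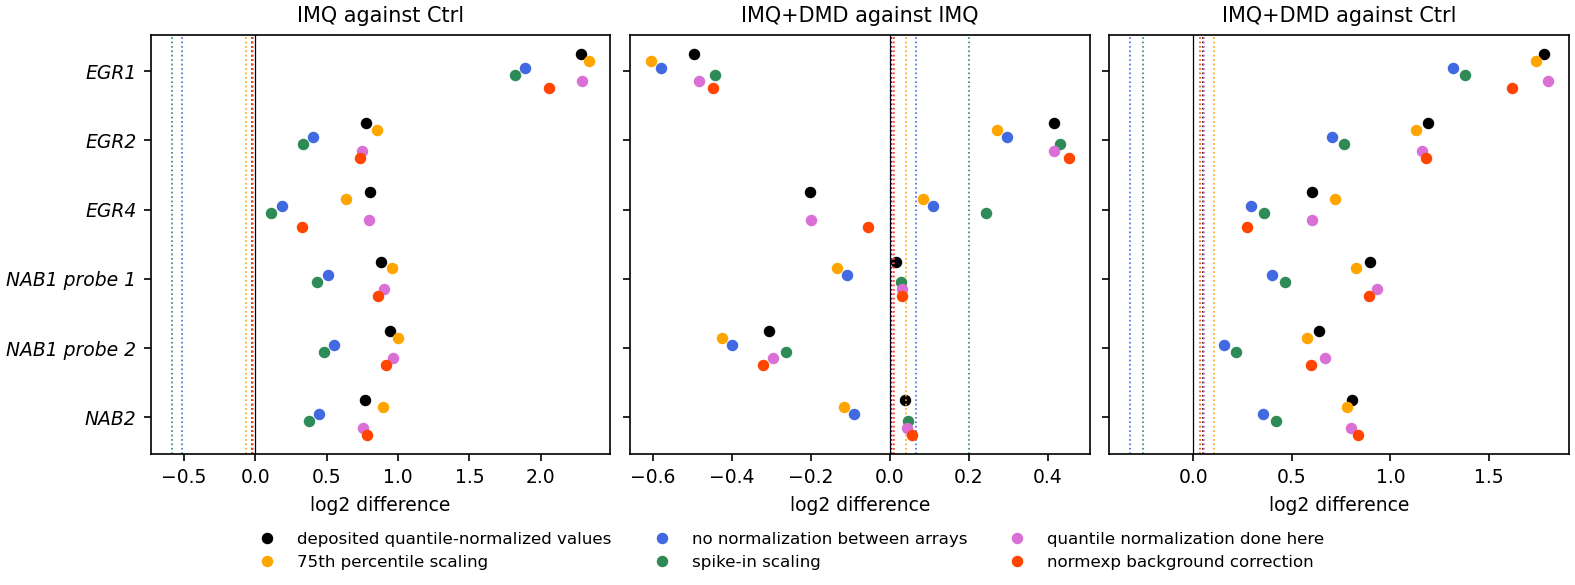
Log2 differences of the 6 probes under 6 ways of scaling the arrays (colours), with dotted vertical lines at the median of all genes under the same scaling. In IMQ against Ctrl every point lies to the right of 0 and of its own median line. In IMQ+DMD against IMQ only EGR1 and NAB1 probe 2 stay left of 0 and only EGR2 stays right of 0 under all 6.

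Of the 7 inducers of EGR transcription (SRF, its partners ELK1, ELK3, ELK4, MKL1 and MKL2, and CREB1), 0 changed 2-fold in any comparison by the probe that stood for the gene, with SRF at 549, 530 and 462 in Ctrl, IMQ and IMQ+DMD. ELK3, a partner of SRF that can repress, came nearest, with 223 in Ctrl, 112 in IMQ and 120 in IMQ+DMD (log2 -0.99 for IMQ against Ctrl), and the count for IMQ against Ctrl became 3 lower without normalization and with spike-in scaling and 1 lower with 75th percentile scaling. For IMQ+DMD against Ctrl it became 2 lower without normalization and with spike-in scaling. MKL2, a coactivator of SRF, was read differently by its 2 probes, with log2 differences of 0.14 and 1.19 for IMQ+DMD against IMQ and of -0.53 and 1.05 for IMQ+DMD against Ctrl, so its second probe passed 2-fold in both. The 6 coactivators and corepressor partners (CREBBP, EP300, CHD3, CHD4, HDAC1 and HDAC2) also had 0 genes changed 2-fold (1 was lower in IMQ+DMD than in Ctrl without normalization), among them CHD4 (3774, 2765 and 2988), the chromatin remodeller that NAB2 recruits. Over all genes, 4.17% were at least 2-fold higher and 3.59% at least 2-fold lower in IMQ than in Ctrl. For IMQ+DMD these shares were 1.19% and 1.25% against IMQ, and 3.04% and 4.83% against Ctrl. Counts of 0 in lists of 7 and 6 genes thus do not set them apart from all genes. These arrays measure mRNA and not the phosphorylation that activates such factors.

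Among the 4 zinc finger factors of related GC-rich sites (SP1, SP3, WT1 and KLF4), KLF4, a factor of monocyte differentiation, fell. It read 604 in Ctrl, 148 in IMQ and 158 in IMQ+DMD. IMQ was 4.09-fold and IMQ+DMD 3.83-fold below Ctrl, by more than 2-fold under all 6 scalings, and in the opposite direction to EGR1. The pretreated array stayed close to IMQ alone for this gene (log2 0.09).

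Genes described elsewhere as EGR targets were often higher with IMQ. Of 20 listed genes, all measured in IMQ against Ctrl, 9 were at least 2-fold higher and 0 at least 2-fold lower. Over all genes these shares were 4.17% and 3.59%. The list had a median log2 difference of 0.68 beside -0.02 for all genes. Many of the listed genes are also targets of NF-κB and other inflammatory factors, so their levels are no reading of EGR activity. IL1B, the inflammasome cytokine, read 13654 in Ctrl, 297790 in IMQ and 263570 in IMQ+DMD (21.8-fold higher in IMQ). TNF read 695, 7666 and 5228 (11.0-fold), and the angiogenic factor VEGFA read 534, 4378 and 2394 (8.20-fold). The growth factor HBEGF (7.07-fold), the adhesion receptor ICAM1 (4.51-fold) and the matrix protein THBS1 (2.97-fold) followed, then CD44 (2.82-fold by 1 probe, with a log2 difference of -0.11 by another), CDKN1A (2.45-fold) and GADD45B (2.15-fold). CDKN1A and GADD45B were under 2-fold in 2 of the 6 scalings, and without normalization or with spike-in scaling the counts were 7 higher and 2 lower. Tissue factor (F3), a textbook EGR1 target, read 479, 791 and 813 and stayed under 2-fold (log2 0.72).

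In IMQ+DMD against IMQ, 1.19% of all genes were at least 2-fold higher and 1.25% at least 2-fold lower. Of the 19 targets measured there, 0 changed 2-fold in either direction, with 13 lower and 6 higher. Their median log2 difference was -0.14, beside 0.00 for all genes. The largest differences were those of VEGFA (log2 -0.87), PTGES (log2 -0.60, a lower limit, since PTGES was well above background in IMQ alone), THBS1 (log2 -0.55) and TNF (log2 -0.55). Close to these in size was the largest rise, that of the dim PDGFB (log2 0.53, from 39.8 in IMQ to 57.5 in IMQ+DMD). With the 75th percentile and without the filter on dim probes 1 target was 2-fold lower, and with spike-in scaling 1 was 2-fold higher. In IMQ+DMD against Ctrl, 8 of 19 were at least 2-fold higher and 0 lower, beside 3.04% and 4.83% of all genes. This count was 7 with the 75th percentile and 6 with spike-in scaling or unscaled signals, since THBS1 passed 2-fold in 3 and CD44 in 4 of the 6 scalings.

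The other immediate-early genes moved with IMQ as well. Of 12 listed, 8 were at least 2-fold higher in IMQ than in Ctrl and 0 at least 2-fold lower, beside 4.17% and 3.59% of all genes. The list median of the log2 difference was 1.40, beside -0.02 for all genes. The nuclear receptor NR4A3 read 81.0 in Ctrl, 3657 in IMQ and 2760 in IMQ+DMD, a 45.1-fold difference by 1 of its probes, while its other probe gave a log2 difference of 1.64. IER3, a stress-induced survival gene, read 875, 29930 and 24024 (34.2-fold), and NR4A2 read 79.6, 758 and 439 (9.52-fold, log2 3.25, with 5.16 by its other probe). Smaller rises were those of JUNB (2.75-fold), ATF3 (2.64-fold, with probes between -0.16 and 1.58 on the log2 scale), FOSB (2.62-fold) and FOS (2.36-fold, at 2075, 4888 and 3215). NR4A1 was well above background in IMQ alone, at least 2.87-fold higher than in Ctrl. FOSB and NR4A1 were at least 2-fold higher under 3 of the 6 scalings, FOS under 4 and JUNB under 5, and with spike-in scaling the count of changed genes was 5, of which 4 were higher.

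In IMQ+DMD against IMQ, 1 of these 12, NR4A1, was at least 2-fold lower (at least 2.80-fold) and 0 were at least 2-fold higher. Over all genes, 1.25% were at least 2-fold lower and 1.19% at least 2-fold higher. NR4A1 read 3.73 in Ctrl, 47.3 in IMQ and 5.03 in IMQ+DMD, and its fall was under 2-fold in 2 of the 6 scalings. The median log2 difference of the 12 was -0.27, with 8 lower and 4 higher than in IMQ. FOS (log2 -0.60) and NR4A2 (log2 -0.79) were below IMQ, as EGR1 was. ATF3 (log2 0.51) and JUN (log2 0.40) were above it, as EGR2 was. In IMQ+DMD against Ctrl, 3.04% of all genes were at least 2-fold higher and 4.83% at least 2-fold lower. Of the 11 listed genes measured there, 7 were at least 2-fold higher and 0 lower, FOSL1 (2.17-fold) among them. Without normalization and with spike-in scaling 5 were higher and 1 lower, and FOSL1 passed 2-fold in 4 and FOSB in 3 of the 6 scalings. Both directions seen between EGR1 and EGR2 under pretreatment were also present among the other immediate-early genes. The same holds for all genes in IMQ+DMD against IMQ, with quartiles of -0.17 and 0.19, so this does not set the list apart.

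**Figure D5:**
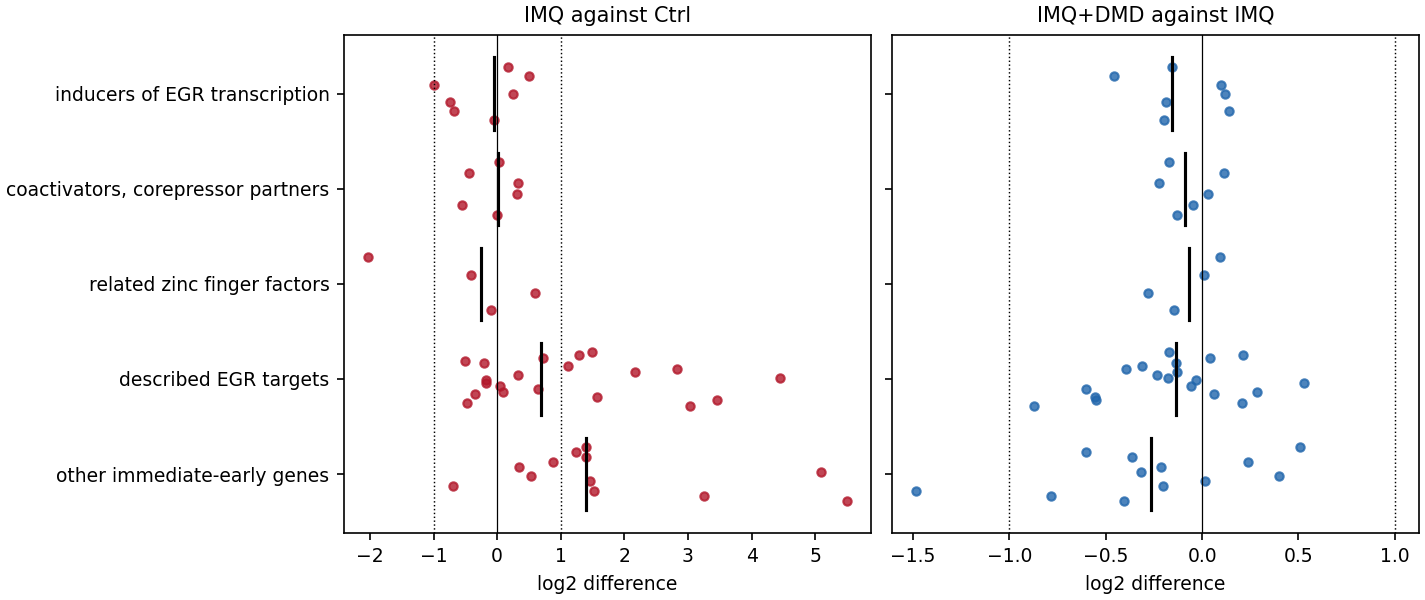
Log2 differences of the genes of 5 lists in IMQ against Ctrl (red) and IMQ+DMD against IMQ (blue), with a point for each measured gene, black bars for list medians and dotted lines at a 2-fold change. In IMQ against Ctrl the EGR targets and the other immediate-early genes reach far to the right with medians of 0.68 and 1.40. In IMQ+DMD against IMQ the single point beyond a dotted line is NR4A1, which is a limit because its dimmer reading was in the background.

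The genes most like EGR1 and EGR2 were looked for among 17026 named genes well above background on all 3 arrays, by the Euclidean distance over the log2 differences of IMQ from Ctrl and of IMQ+DMD from IMQ. For EGR1 they were C9orf72 (distance 0.06, differences 2.28 and -0.55), LIF (0.10, 2.36 and -0.44) and DNAH17 (0.11, 2.29 and -0.39). For EGR2 they were GPC1 (0.01, 0.77 and 0.43), DPYSL3 (0.07, 0.78 and 0.49) and LOC101927377 (0.07, 0.79 and 0.49). With 3 arrays many genes lie close to any pattern, and the likeness describes these arrays only.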

How the data were processed

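Total RNA of 3 THP-1 cultures was labelled with Cy3 and hybridised to 1 array each, all on 1 slide, and read with Feature Extraction 10.5.1.1, per the file headers. The deposited series table holds for each array the raw intensity, which equals the scanner's processed signal for single-spot probes, and the authors' quantile-normalized intensity, in arbitrary units. Quantile normalization with limma 3.58.1 (R 4.3.3) differed from the latter by a median of 0.00131 on the log2 scale. The study's discussion speaks of RNA sequencing, whereas these files are arrays with probes placed on hg19.

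Here log2 normalized intensities were compared between single arrays (Python 3.11.15, pandas 2.3.3). Where a gene had several probes, the brightest on average stood for it. A gene was compared where the brighter array was well above background. A dimmer reading in the background was raised to the lowest value well above background on its array, which makes the difference a lower limit. A change was called at 2-fold. The step was tried on simulated arrays that shared their background marks and had only the noise of a spot within an array. It thus did not cover raised readings or the spread between cultures. Precision is limited by having 1 array for each condition. The members and lists were chosen with earlier results of these data known. Named were all members, list genes changed 2-fold and the 3 genes most like each changed member. SRF, ELK3, CHD4, F3, JUN, PTGES, PDGFB and the probes that disagree were added after their values were seen. A list of signalling genes is not reported here. Promoters came from RefSeq (GRCh38.p14), without the chromosome that holds EGR3. The 9 alternatives were 5 other scalings (75th percentile of the processed signal, none, spike-in controls, quantile normalization without outlier spots, and normexp with an offset of 50), 2 other filters on dim probes, the mean over probes and a 1.5-fold threshold.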

Additional observations from a re-analysis of the deposited data

How the results depend on the processing

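The direction of EGR1 was kept in all 3 comparisons under 8 of 8 alternatives, between 1.82 and 2.34 for IMQ against Ctrl, between -0.60 and -0.44 for IMQ+DMD against IMQ and between 1.32 and 1.80 for IMQ+DMD against Ctrl, on the log2 scale. The 2 other filters and the mean over probes could not change these values, since EGR1 has 1 probe, well above background on every array. Differences that moved by more than the technical SD were those without normalization (1.89, -0.58 and 1.32 in that order), with spike-in scaling (1.82 and 1.38 in the comparisons of IMQ and of IMQ+DMD with Ctrl), with the 75th percentile (-0.60 for IMQ+DMD against IMQ) and with normexp background correction (2.06 and 1.62 for the comparisons with Ctrl). The count of members changed in IMQ+DMD against Ctrl was 1 in place of 2 without normalization and with spike-in scaling, where the median of all genes lay 0.32 and 0.26 below Ctrl. A 1.5-fold threshold, applied to the deposited values alone, gave a count of 5 in each comparison with Ctrl. There 10.7% (IMQ) and 9.76% (IMQ+DMD) of all genes were higher by that much. In the remaining 23 of 27 settings the member counts stood. Over all genes, without normalization 579 were at least 2-fold higher and 5156 lower in IMQ than in Ctrl, beside 1329 and 1143 as deposited. With spike-in scaling these were 523 and 6213, with normexp 588 and 608, and without a filter on dim probes 2701 and 2823. For IMQ+DMD against IMQ the deposited values gave 376 higher and 396 lower, spike-in scaling 2214 and 129, the 75th percentile 1234 and 194, unscaled signals 1370 and 180, normexp 20 and 29, no filter 1843 and 1515, and a reading well above background on both arrays 257 and 232. For IMQ+DMD against Ctrl these were 1026 and 1627 as deposited, 572 and 2966 with spike-in scaling, 512 and 3401 with unscaled signals, 526 and 816 with normexp and 2240 and 2752 without a filter. The cause of these shifts was not tested. No alternative can supply the missing replicates, so leaving out an array was not run. No paired analysis was possible because each condition was a single array. EGR3 was in the background on every array, and at the brightness of EGR4 a difference under about 0.30 on the log2 scale is within the noise of a spot.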
